A study of Homo sapiens with 12 samples.

Results

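The clustered protocadherins are cell-surface proteins encoded by 3 neighbouring gene clusters on human chromosome 5, named alpha, beta and gamma. The 53 protein-coding genes of these clusters were taken by symbol (PCDHA, PCDHB or PCDHG followed by a letter or number) from GENCODE release 29, out of 58735 genes in the count tables, of which 19951 are protein-coding. The alpha cluster gave 15 genes between positions 140786136 and 141012347 of GRCh38, the beta cluster 16 genes between 141051135 and 141249365, and the gamma cluster 22 genes between 141330571 and 141512981. All 53 genes lie on the plus strand.

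In the alpha and gamma clusters each gene has its own large first exon, which encodes the extracellular part, and all genes of a cluster are spliced to the same small set of constant exons that encode the common intracellular part. Beta genes are single-exon or nearly so and have no constant exons. Neurons are known for choosing a few of these promoters per cell, by a choice that depends on DNA methylation and on looping by CTCF and cohesin, and the proteins on facing membranes bind only matching copies, which lets a neuron tell its own branches from those of others. Genes called C-type (PCDHAC1, PCDHAC2, PCDHGC3, PCDHGC4 and PCDHGC5) sit last in their clusters and are regulated apart from the others.

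Expression was measured by RNA sequencing of total RNA in HEK293T, an established line from human embryonic kidney that also makes several neuronal filament proteins. The 12 libraries form 4 groups of 3, each taken 24 h after transfection with a lipid reagent. A plasmid for the microRNA miR-211 or a control plasmid was given at 500 ng, and an siRNA against U1 small nuclear RNA (labelled U1 siRNA WT) was given at 1 nM beside a scrambled oligo (labelled Scram WT). Per the labels, at least 50% of cells took up DNA and U1 was lowered by 30%, so each group may be a mixture of cells. Nothing in the labels says whether replicates were separate cultures. The p-values below therefore speak only of how far these libraries spread, which may be a technical matter.

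The libraries held 4515728 to 9290686 counts over genes. U1 siRNA replicate 2 stood apart: pairs outside annotated exons made up 44.5% of those mapped once, against 14.5% to 25.5% in the other 11, and values without it are given where it moves a result. MIR211 was counted 1646 to 1997 times in each miR-211 library and 1 to 9 times in each of the other 9. The summed level of 15 annotated U1 genes was 16.7 ± 2.51 CPM (CPM, a gene's counts per 1e+06 counts of its library; SD, n = 3) after the U1 siRNA. After the scrambled oligo it was 18.4 ± 1.65 CPM (SD, n = 3), and the groups overlapped. Reads from near-identical U1 copies may not have been counted, so that sum is uncertain. Of 5 filament genes that HEK293T cells make (VIM, KRT8, KRT18, NEFL and NEFM), the summed level was 150.4 to 193.0 CPM. Marker lists of glia (4 genes), fibroblasts (5) and blood (4) had no gene above background in all 12 libraries, nor had that of melanocytes (4), and 1 of 6 genes of mature neurons (GAD1) was above it. The clustered protocadherins are judged below by a looser rule, more than 6 of 12 libraries. By that rule the melanocyte genes PMEL (9 libraries) and MLANA (7) were above background too.

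A conserved sequence element with the letters CGCT at its core marks most promoters of these genes and is known as a place where CTCF binds near the start. RefSeq promoters on GRCh38.p14, running from 250 bases before to 50 after each start, were found for 47 of the 53 genes; PCDHA3, PCDHA13, PCDHB6, PCDHB11, PCDHGA12 and PCDHGC5 are named only. CGCT on the sense strand within the 120 bases before the start was present in 44 of these 47 promoters (93.6%) and in 31.8% of all 27305 promoters in the table; PCDHA9, PCDHB8 and PCDHGB2 did not have it there. On either strand of the whole 300 bases, 46 of the 47 and 69.4% of all promoters had it, so the letters alone are common. The 30-base windows below, with CGCT in capitals, show the 3 genes that were above background in most libraries. For comparison, they also show 1 gamma, 2 alpha and 2 beta genes that were at background.

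PCDHGC3: ggctgggactctgtgtgcCGCTgtcggcca
PCDHGA11: agaatgggctctaggcgcCGCTgctcacca
PCDHGC4: ttggctgagcccgggagcCGCTgtctgcca
PCDHGA10: tcttaggactctgagcgcCGCTgttcacct
PCDHA4: tttggagccacatgatgtCGCTctttacca
PCDHA8: tttgaagccacatgatgtCGCTgtctacca
PCDHB9: ttggaagccacaaggtggCGCTgcagactg
PCDHB16: agtgagaacgcgtggtggCGCTgcaggtta

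These windows lie at chr5:141475878-141475907 for PCDHGC3, chr5:141420970-141420999 for PCDHGA11, chr5:141484950-141484979 for PCDHGC4, chr5:141412929-141412958 for PCDHGA10, chr5:140806977-140807006 for PCDHA4, chr5:140841128-140841157 for PCDHA8, chr5:141187072-141187101 for PCDHB9 and chr5:141182308-141182337 for PCDHB16. The commonest base at each place was taken per cluster from the promoters with a single CGCT there (9 alpha, 9 beta and 13 gamma), and where a promoter held several, as that of PCDHGC3 did, the copy closest to this majority sequence was used. Against it, a gene with a window matched at a median of 23 of 30 bases in the alpha cluster (12 genes), 24 in the beta cluster (13 genes) and 24 in the gamma cluster (19 genes), the 4 bases of CGCT included. Of the 3 genes above background in most libraries, PCDHGA11 matched at 23, PCDHGC3 at 22 and PCDHGC4 at 16. PCDHGA10, which lies before PCDHGA11 with PCDHGB7 between them, was at background and matched at 27, the highest match in the gamma cluster. All 3 genes above background thus matched at fewer bases than the gamma median. So did PCDHGB7 (8), PCDHGB3 (17), PCDHGB6 (19) and PCDHGB1 (20), which were at background. The gamma majority sequence was taken mostly from promoters of PCDHGA genes, and a link between match and level was not tested. Each window was placed at a CGCT, so a window with a low match, such as that of PCDHGC4, may lack the rest of the conserved element. A match of letters is a description and not a measured binding site.

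Counts of these genes were few, and what could be counted differed by cluster. STAR, the aligner named in the submitters' processing notes, counts a read pair that overlaps several genes as ambiguous and for none of them, so pairs within the constant exons were counted for no gene. All 15 alpha genes share 2866 exon bases and all 22 gamma genes share 2181, leaving 36.9% to 78.7% of each alpha gene's exon bases and 35.6% to 72.4% of each gamma gene's to be counted, against 75.1% or more for beta genes. Levels between genes are therefore given as counts per kilobase of exon shared with no other annotated gene, per 1e+06 counts of the library (per kb below). Over all 12 libraries the 53 genes gathered 1542 counts, 250 of them in alpha, 361 in beta and 931 in gamma genes, and 223 of the 636 values (35.1%) were 0.

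Reads from DNA or stray transcription give silent genes some counts as well. The level of 384 olfactory receptor genes, a family used mainly in the nose, was therefore taken as background. Their lengths were not matched to the 2011 to 10574 unshared exon bases of the clustered protocadherins. In a shorter gene each count gives a higher value per kb, so the limit below depends on length as well as on level. The 95th percentile of these genes was the limit in each library: 0.148 to 0.5 per kb in 11 libraries and 1.10 in U1 siRNA replicate 2. Averaged over the libraries, the median olfactory receptor gene had 0.0607 per kb and the median clustered protocadherin 0.0552. Without U1 siRNA replicate 2 these medians were 0.0507 and 0.0411. Within single libraries the protocadherin median was above the olfactory receptor median in 8, equal to it in 2 and below it in 2, so neither family was the higher in every library.

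PCDHGC3, PCDHGA11 and PCDHGC4 were the genes that stood above this background. They exceeded the limit in 10, 10 and 11 of the 12 libraries, the next gene, PCDHB11, did so in 3, PCDHGA7 in 2, and PCDHA8, PCDHGB2 and PCDHGA10 in 1 each. The other 45 genes exceeded it in no library. By a rule of more than 6 of 12 libraries, chosen after these values were seen, 3 of 53 clustered protocadherins were above background, against 56.1% of the 19511 protein-coding genes with enough unshared exon and 5 of the 384 olfactory receptor genes. In U1 siRNA replicate 2 no clustered protocadherin exceeded the limit. The 3 genes held 538 of the 1542 counts (34.9%) and 57.8% of the gamma counts.

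**Figure D1:**
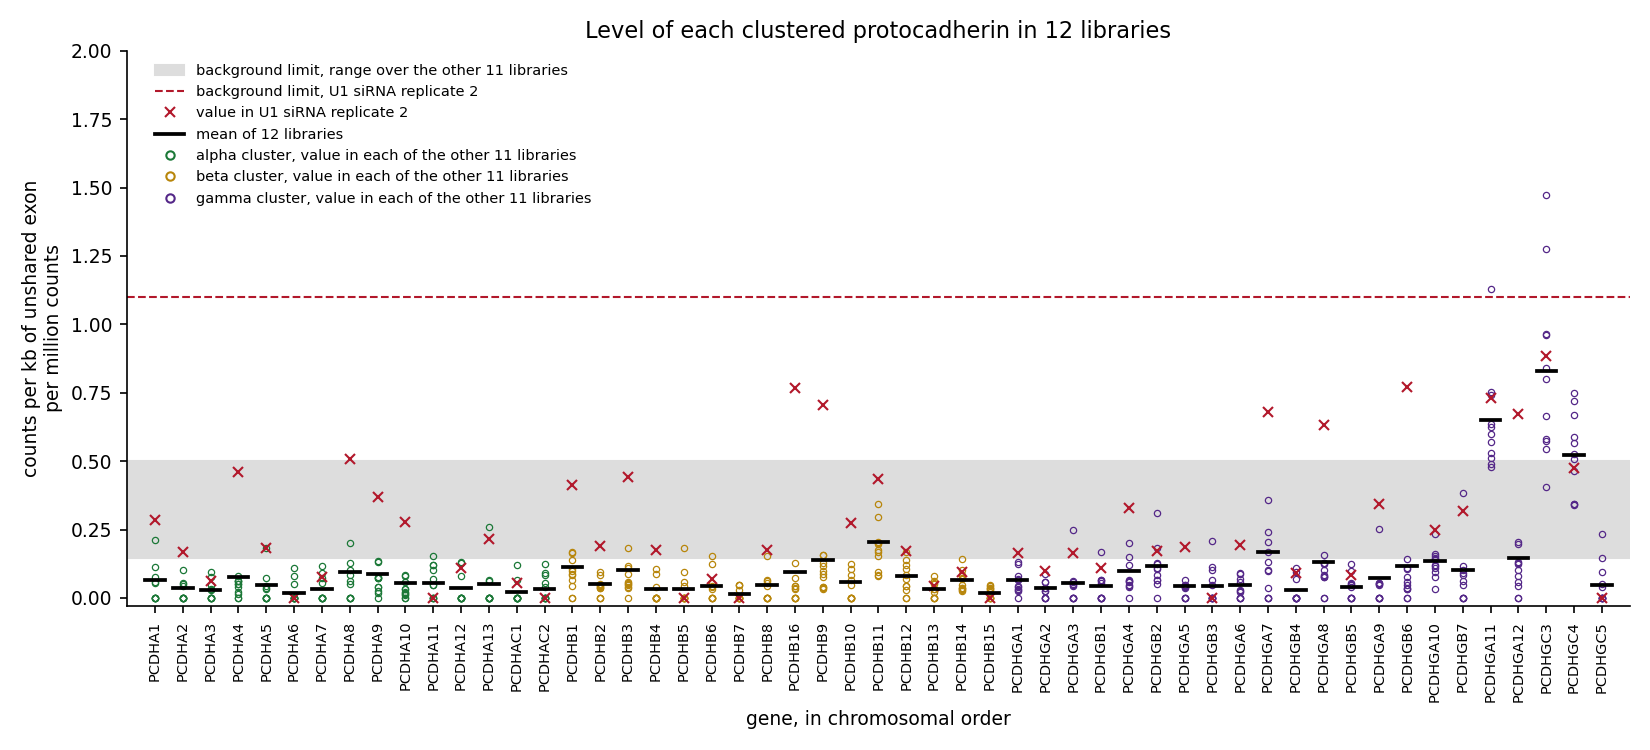
Level of each of the 53 genes in chromosomal order, in counts per kb of unshared exon per 1e+06 counts; each circle is 1 of 11 libraries, crosses are U1 siRNA replicate 2, and bars are means over 12 libraries. PCDHGC3, PCDHGA11 and PCDHGC4 have means of 0.83, 0.649 and 0.524, above the 0.203 of PCDHB11, and the crosses of many other genes lie far above their circles.

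PCDHGC3, the C-type gene at chr5:141475947-141512979, had the highest level, 0.83 ± 0.311 per kb (SD, n = 12), with a range of 0.405 to 1.47. PCDHGA11, an A-type gamma gene at chr5:141421047-141512979, had 0.649 ± 0.179 per kb, and PCDHGC4, the C-type gene at chr5:141484997-141512979, had 0.524 ± 0.142. Their means are 13.7, 10.7 and 8.64 times the median of the olfactory receptor means, and 2 olfactory receptor genes of 384 had a higher mean than PCDHGC4. In 11 of 12 libraries all 3 exceeded every other clustered protocadherin per kb, U1 siRNA replicate 2 being the exception. Without that library their means were 0.825, 0.642 and 0.529 per kb, or 16.3, 12.7 and 10.4 times the olfactory receptor median.

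The order among the 3 was less clear than their distance from the rest. PCDHGC3 was above PCDHGA11 in 8 of 12 libraries and PCDHGA11 above PCDHGC4 in 8 of 12, so the order of neighbours did not hold in every library. PCDHGC3 was above PCDHGC4 in 10 of 12. PCDHGC3 was just under the limit in miR-211 replicate 1, and PCDHGA11 was under it in plasmid control replicate 3.

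The remaining C-type genes were at background. PCDHGC5, the last gene of the gamma cluster and the neighbour of PCDHGC4, had 11 counts in 5 libraries (0.0471 ± 0.0755 per kb). PCDHAC1 had 6 counts in 3 libraries and PCDHAC2 had 9 counts in 5, with means of 0.0201 and 0.0329 per kb. PCDHAC2 was at 0 in all 3 U1 siRNA libraries, where 3 counts, the limit that a count of 0 allows, amount to 0.473 to 0.664 CPM per library.

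Among the other gamma genes the highest means were 0.168 ± 0.194 per kb for PCDHGA7 (42 counts), 0.146 ± 0.178 for PCDHGA12 (28 counts) and 0.136 ± 0.0604 for PCDHGA10 (49 counts). PCDHGA10 was counted 1 to 8 times in every library, whereas PCDHGA7 ranged from 0 to 10 and PCDHGA12 from 0 to 8. Both had their highest count in U1 siRNA replicate 2, and without it PCDHGA10 led them with 0.126 per kb, before PCDHGA7 with 0.122 and PCDHGA12 with 0.0978. Over all 12 libraries the 3 means lie between the median and the 95th percentile (0.248) of the olfactory receptor means.

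In the beta cluster PCDHB11 led with 0.203 ± 0.108 per kb, from 68 counts spread over all 12 libraries at 2 to 13 each. It was followed by PCDHB9 with 0.140 per kb (42 counts), PCDHB1 with 0.114 (69 counts), PCDHB3 with 0.102 (22 counts), PCDHB16 with 0.0933 (23 counts) and PCDHB12 with 0.0813 (26 counts). Without U1 siRNA replicate 2 PCDHB11 still led with 0.182 per kb, PCDHB9 had 0.0889, PCDHB1 0.0869, PCDHB12 0.0731 and PCDHB3 0.0712, while PCDHB16, at 0.0321 from 10 counts, was the 12th of the 16 beta genes. For PCDHB11, 31 olfactory receptor genes had a higher mean over the 12 libraries and 20 without U1 siRNA replicate 2. The lowest beta gene, PCDHB7, had 4 counts in all.

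Alpha genes had the lowest median of the 3 clusters, 0.046 per kb against 0.055 for beta and 0.0844 for gamma genes, and their means ran from 0.0197 to 0.0940. PCDHA8 had 0.0940 per kb (17 counts), PCDHA9 0.0881 (44 counts), PCDHA4 0.0755 (54 counts) and PCDHA1 0.0667 (11 counts). No alpha gene was counted in all 12 libraries, and 10 of the 15 were counted in 6 or fewer. For PCDHA4, 22 of its 54 counts came from U1 siRNA replicate 2, and no other library gave it more than 5. Without that library the order turned: PCDHA9 had 0.0626 per kb, PCDHA11 0.0603, PCDHA8 0.0564, PCDHA1 0.0469 and PCDHA4 0.0405. The medians were then 0.0336 per kb for alpha, 0.0390 for beta and 0.0584 for gamma genes, and the mean of 11 of the 53 genes was lower by more than 1.5 times.

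Genes within and beside the clusters were read the same way. TAF7, a subunit of the general transcription factor TFIID that lies between the beta and gamma clusters, had 16530 counts and 75.7 per kb. The pseudogenes PCDHB17P, PCDHB18P and PCDHB19P had 0.0471, 0.0727 and 0.0640 per kb, and PCDHGB8P and PCDHGB9P had 0.0885 and 0.192. These values fall within the range of the protein-coding genes at background. Some other noncoding genes and pseudogenes in the region had higher means from few counts. Among them were RN7SL68P with 0.529 per kb (13 counts), close to PCDHGC4, AC008781.3 with 0.449 (10 counts) and AC244517.3 with 0.314 (29 counts). They were above the limit in 5, 5 and 6 libraries. Antisense genes annotated over the alpha cluster had 0 counts, but pairs in bases they share with an alpha gene are counted for neither.

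Protocadherins outside the clusters gave a contrast. PCDH9 had 8.35 per kb, PCDH18 2.33, PCDH7 1.65 and PCDH10 1.03, each above the limit in all 12 libraries. The other 7 listed genes (PCDH1, PCDH8, PCDH11X, PCDH12, PCDH17, PCDH19 and PCDH20) were above it in 0 to 5 libraries. PCDH20 rests on 9 counts over few unshared bases and is not drawn in the plot of gene families.

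**Figure D2:**
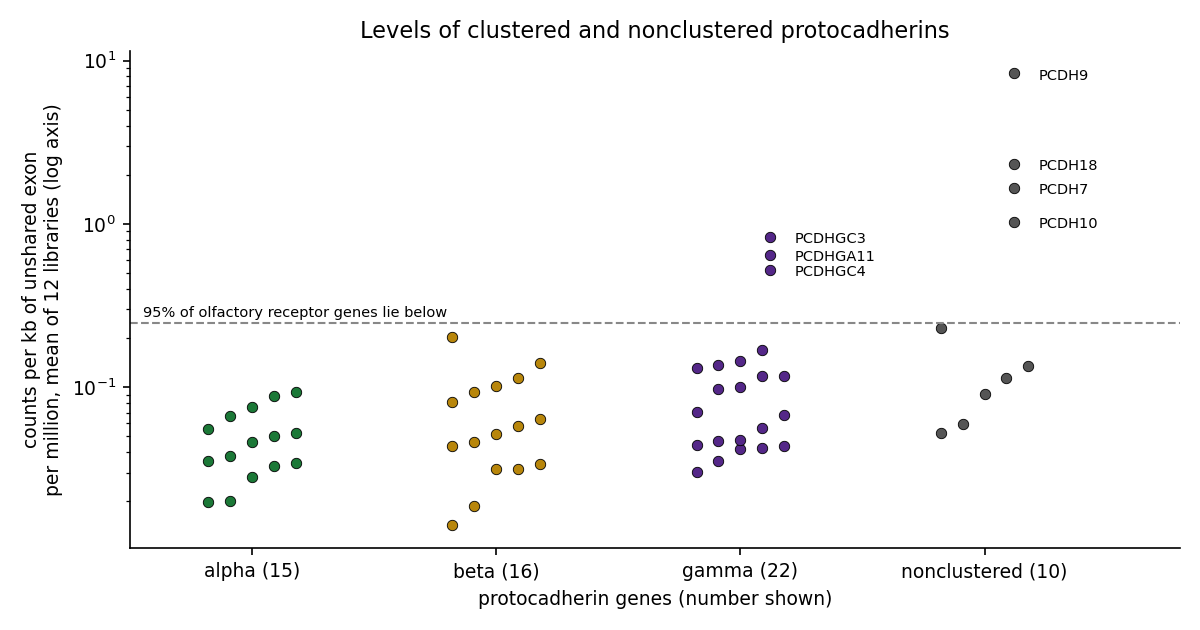
Mean level over 12 libraries of 15 alpha, 16 beta, 22 gamma and 10 nonclustered protocadherin genes, in counts per kb of unshared exon per 1e+06 counts on a log axis; each point is a gene. The dashed line is the 95th percentile of the means of olfactory receptor genes (0.248), and 3 gamma and 4 nonclustered genes lie above it.

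The summed levels of the alpha and beta clusters were high in the libraries where the background genes were high. PCDHGC3, PCDHGA11 and PCDHGC4 followed the background genes less closely. Even so, PCDHGC3 was highest in miR-211 replicate 3 (4.79 CPM) and plasmid control replicate 3 (4.14 CPM). The olfactory receptor sums of these libraries were also high, at 68.4 and 75.2 CPM. In U1 siRNA replicate 2 the alpha genes summed to 14.4 CPM, 7.04 times the median of the other 11 libraries, the beta genes to 16.4 CPM (4.22 times), the gamma genes to 25.3 CPM (2.57 times) and the olfactory receptor genes to 249.6 CPM (4.91 times). The highest CPM of 27 of the 53 genes was in that library alone. PCDHGC3 had 2.88 CPM there, PCDHGA11 2.66 CPM and PCDHGC4 1.33 CPM, and all 3 values lie inside the range of the other 11 libraries.

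PCDHB16, PCDHGB6 and PCDHB9 show the rise in U1 siRNA replicate 2 in single genes, chosen after their values were seen. PCDHB16 had 0.767 per kb in U1 siRNA replicate 2 (13 counts) and at most 0.126 in the other 11. PCDHGB6 had 0.770 there (16 counts) and at most 0.141 elsewhere, and PCDHB9 had 0.706 (13 counts) and at most 0.159. All of these values are below that library's own background limit of 1.10. The next highest olfactory receptor sums were those of miR-211 replicate 1 (79.4 CPM) and plasmid control replicate 3 (75.2 CPM). In these libraries PCDHB16 had 0 and 2 counts, PCDHGB6 3 and 0, and PCDHB9 1 and 1.

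The other 11 libraries also differed. Their alpha sum ran from 0.576 CPM in plasmid control replicate 2 to 5.34 CPM in plasmid control replicate 3, 9.29 times as much, and these 2 libraries had olfactory receptor sums of 14.8 and 75.2 CPM. Plasmid control replicate 3 had counts for 48 of the 53 genes and for 266 of the 384 olfactory receptor genes. The share of pairs outside exons was 16.8% in that library, within the range of the others, and so did not mark it.

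Across the 12 libraries the alpha sum followed the olfactory receptor sum with Pearson r = 0.981 and Spearman rho = 0.916, the beta sum with r = 0.986 and rho = 0.909, and the gamma sum with r = 0.931 and rho = 0.587. Without the 2 libraries farthest from the median of the olfactory receptor sum (U1 siRNA replicate 2 and plasmid control replicate 2), r was 0.803 for alpha, 0.805 for beta and 0.527 for gamma. Within the 6 plasmid libraries r was 0.903, 0.844 and 0.695. Within the 6 oligo libraries, which include U1 siRNA replicate 2, r was 0.991, 0.998 and 0.978. By rank, rho in those oligo libraries was 0.714 for alpha, 0.943 for beta and -0.0857 for gamma. For PCDHGC3, PCDHGA11 and PCDHGC4 r was 0.146, 0.0316 and -0.153 over the 12 libraries, 0.230, -0.253 and -0.128 without the 2 farthest, and 0.280, -0.316 and -0.154 without U1 siRNA replicate 2 alone. Their r was 0.305, -0.358 and -0.215 within the 6 plasmid libraries, and 0.333, -0.0473 and -0.110 within the 6 oligo libraries. These are descriptions of values that share a library total, given with no test, and the part of DNA, RNA quality or handling in them was not tested.

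**Figure D3:**
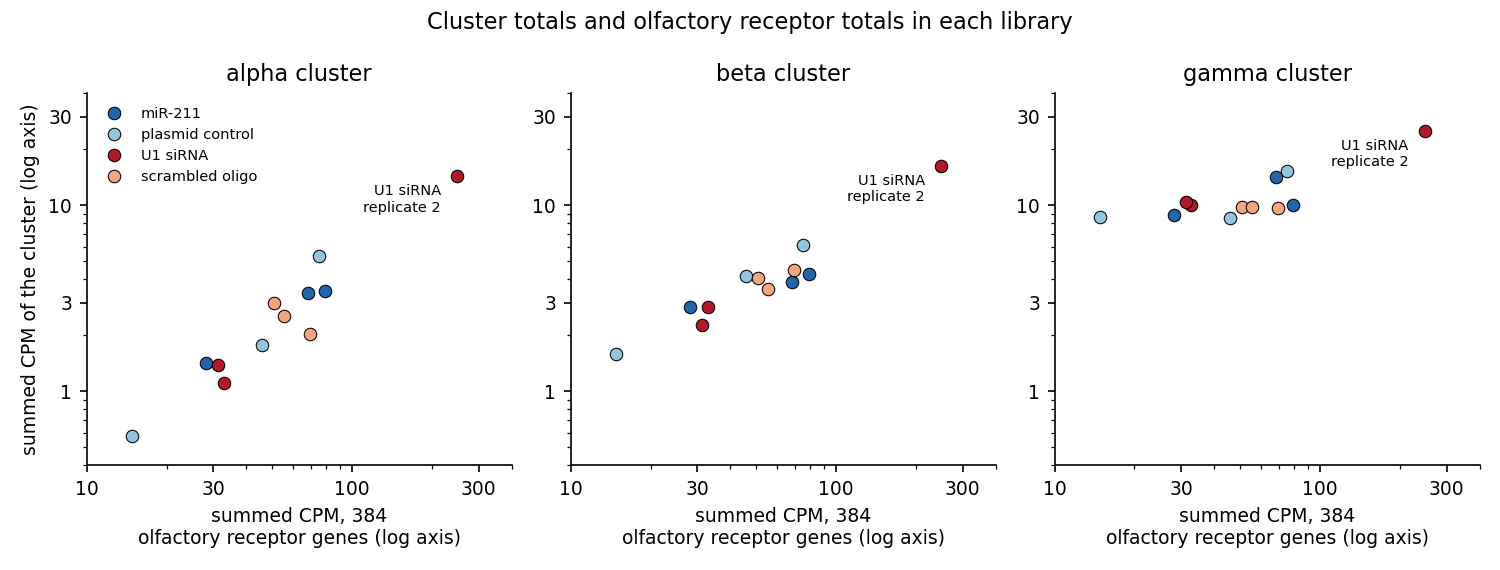
Summed CPM of the alpha, beta and gamma genes (vertical, log axis) against summed CPM of 384 olfactory receptor genes (horizontal, log axis), with 1 point per library coloured by group. The alpha and beta sums go up along the horizontal axis from plasmid control replicate 2 (0.576 and 1.58 CPM) to U1 siRNA replicate 2 (14.4 and 16.4 CPM), and the gamma sum stays between 8.51 and 15.2 CPM in 11 libraries.

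The first comparison asked whether any of these genes changed with miR-211. No member passed the test: 3 of the 53 genes had enough counts for edgeR's quasi-likelihood test, and 0 of the 3 passed a Benjamini-Hochberg adjusted p of 0.05 over all 12685 genes tested. Of all those genes 1 passed (0.00788%), MIR211 itself, with a log2 fold change of 8.88 (SE 0.23, adjusted p = 2.97e-12 by edgeR).

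PCDHGC3 had 1.32, 2.60 and 4.79 CPM in miR-211 replicates 1 to 3 and 2.73, 2.16 and 4.14 CPM in the control plasmid replicates. Replicate 3 was the highest in both groups, and the groups overlapped over most of their range. The means were 2.90 ± 1.75 and 3.01 ± 1.02 CPM (SD, n = 3 each), and the log2 fold change was 0.0023 (SE 0.38, adjusted p = 0.999 by edgeR).

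PCDHGA11 had 2.31, 1.77 and 2.07 CPM with miR-211 and 1.93, 2.73 and 1.74 CPM with the control plasmid. The 3 miR-211 values lay between the lowest and the highest control value. Its log2 fold change was -0.04 (SE 0.33, adjusted p = 0.997 by edgeR). PCDHGC4 had 1.65, 2.01 and 1.42 CPM with miR-211 and 0.964, 1.58 and 1.47 CPM with the control plasmid, so that 2 of the 3 miR-211 values lay above all control values and the third lay among them. Its log2 fold change was 0.36 (SE 0.38, adjusted p = 0.996 by edgeR), and the ratio of its summed CPM was 1.26, with an exact 95% interval for counting error of 0.753 to 2.13.

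None of the 3 tested genes had groups that did not overlap, against 9.7% of all genes tested. The cluster sums were as close: alpha 2.75 ± 1.15 CPM with miR-211 and 2.56 ± 2.48 with the control plasmid, beta 3.67 ± 0.746 and 3.97 ± 2.29, and gamma 11.1 ± 2.82 and 10.8 ± 3.85 (SD, n = 3 each). The ratios of totals were 0.996 (0.678 to 1.47) for alpha, 0.895 (0.650 to 1.23) for beta and 1.01 (0.836 to 1.21) for gamma. Without plasmid control replicate 3, which had the highest alpha sum of the 6 libraries, the alpha ratio was 2.33.

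**Figure D4:**
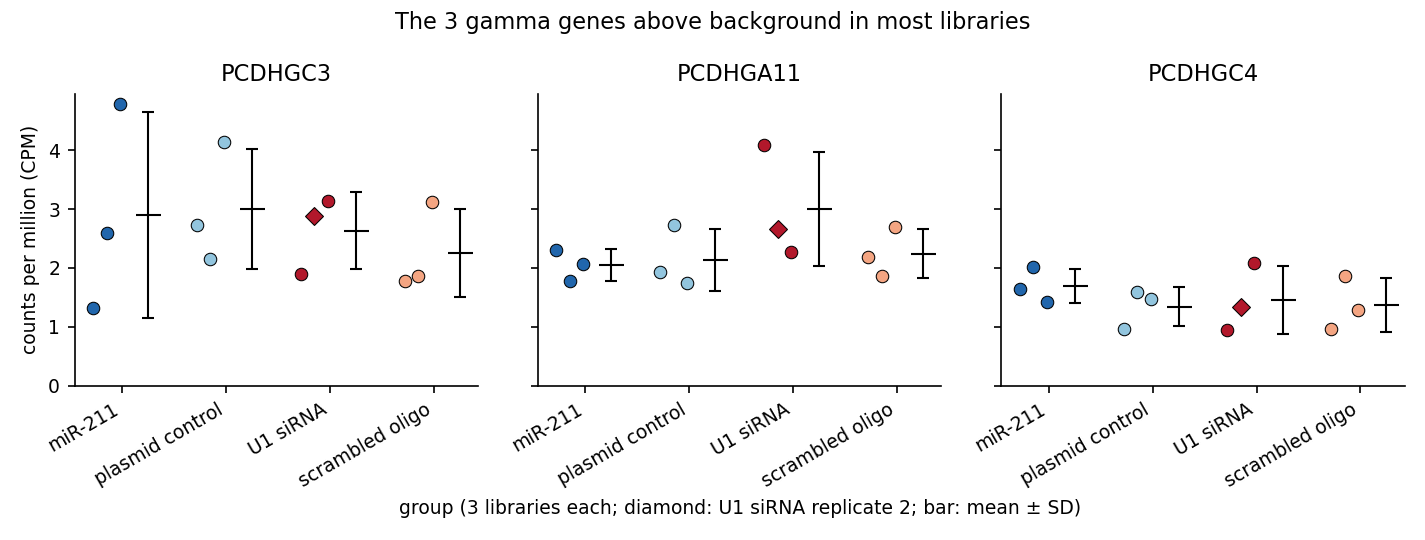
CPM of PCDHGC3, PCDHGA11 and PCDHGC4 in each library by group, 3 libraries a group, with the mean ± SD beside the points and U1 siRNA replicate 2 as a diamond. The groups overlap in each panel, and the diamond lies inside the range of the other libraries at 2.88, 2.66 and 1.33 CPM.

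The second comparison asked the same of the U1 siRNA. PCDHGC3 and PCDHGA11 were tested and neither passed, and of 12413 genes tested none did (0.0%) by edgeR, with 196 at an unadjusted p under 0.05 and none called by DESeq2. PCDHGC4 had too few counts in this comparison to pass the filter on low counts.

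PCDHGA11 had 4.10, 2.66 and 2.27 CPM with the U1 siRNA and 2.18, 1.86 and 2.69 CPM after the scrambled oligo. U1 siRNA replicate 1 had the highest value of all 12 libraries, and the other U1 siRNA values lay among the scrambled ones. The log2 fold change was 0.41 (SE 0.36, adjusted p = 0.9999 by edgeR). PCDHGC3 had 1.89, 2.88 and 3.14 CPM with the U1 siRNA and 1.77, 1.86 and 3.12 CPM after the scrambled oligo, an overlap over nearly the whole range, and a log2 fold change of 0.19 (SE 0.38, adjusted p = 0.9999 by edgeR). Without U1 siRNA replicate 2 the log2 fold changes were 0.50 for PCDHGA11 and 0.11 for PCDHGC3, each with an adjusted p of 1.0 by edgeR. PCDHGC4 had 0.946, 1.33 and 2.09 CPM against 0.954, 1.86 and 1.29 CPM, also overlapping.

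Both tested genes had groups that overlapped, beside 6.45% of all genes tested whose groups did not. The cluster sums rested on U1 siRNA replicate 2. With all 6 libraries the ratio of totals was 1.94 (1.36 to 2.78) for alpha, 1.53 (1.15 to 2.05) for beta and 1.47 (1.22 to 1.77) for gamma. Without U1 siRNA replicate 2 the alpha ratio was 0.499 (0.262 to 0.895), the beta ratio 0.622 (0.400 to 0.942) and the gamma ratio 1.05 (0.837 to 1.32), so that alpha and beta turned direction. The alpha sums were 1.10, 14.4 and 1.39 CPM with the U1 siRNA and 3.00, 2.54 and 2.05 CPM after the scrambled oligo, with U1 siRNA replicate 2 above and the other 2 below all scrambled values. The olfactory receptor sums stood the same way around, at 32.8, 249.6 and 31.2 CPM after the U1 siRNA and 50.8, 55.4 and 69.2 CPM after the scrambled oligo, and their part in the ratios was not tested. The gamma sums, 10.1, 25.3 and 10.5 CPM against 9.81, 9.83 and 9.69 CPM, did not overlap between the groups, although 2 of the 3 lay within 1 CPM of the scrambled values. These intervals cover counting error only and not the spread between libraries.

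**Figure D5:**
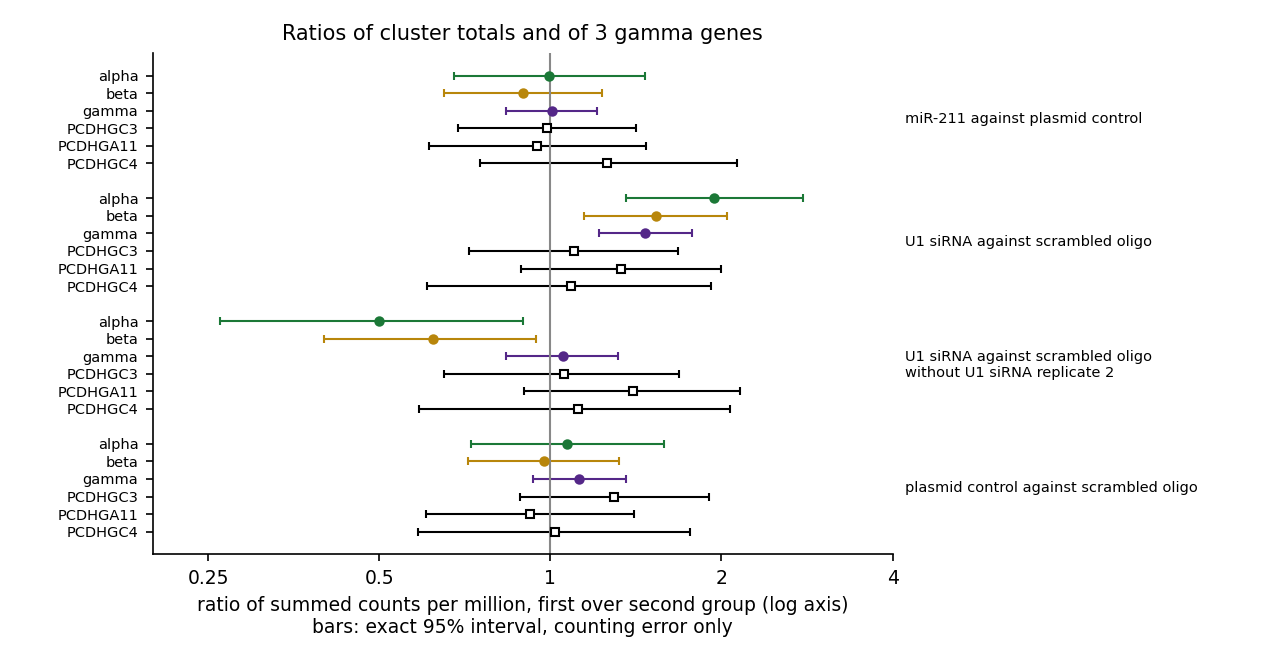
Ratio of summed CPM in the first over the second group of each comparison (log axis) for the 3 clusters and for PCDHGC3, PCDHGA11 and PCDHGC4, with exact 95% intervals that cover counting error only. With U1 siRNA the alpha ratio is 1.94 with all libraries and 0.499 without U1 siRNA replicate 2, and the intervals of the 3 genes include 1 in every row.

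PCDHB16 had the lowest unadjusted p of any clustered protocadherin when the filter on low counts was dropped and all genes with a count were fitted. Its counts were 1, 13 and 0 with the U1 siRNA and 1, 0 and 0 after the scrambled oligo, and its adjusted p was 0.979 by edgeR. In that fit 51 of the 53 genes had a count in the U1 siRNA comparison and 53 in the others, and none passed in any of the 3 comparisons.

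Both control groups were set side by side to see whether the kind of transfection went with the level of these genes. The agent, the day and any batch cannot be told apart here, and the groups are also the controls of the comparisons above. None of the 3 genes tested passed, nor did any of 12650 genes (0.0%) by edgeR, with 986 at an unadjusted p under 0.05 and 27 called by DESeq2. The log2 fold change of plasmid control over scrambled oligo was 0.39 for PCDHGC3 (SE 0.33, adjusted p = 0.828 by edgeR), 0.02 for PCDHGC4 (SE 0.39) and -0.10 for PCDHGA11 (SE 0.31). No tested member had groups that did not overlap, against 13.9% of all genes tested.

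The difference between the miR-211 and the U1 siRNA effect was tested with an interaction term in a fit of the 12 libraries. It was -0.46 on the log2 scale for PCDHGA11 (SE 0.49), -0.20 for PCDHGC3 (SE 0.60) and 0.24 for PCDHGC4 (SE 0.62), each with an adjusted p of 0.999 by edgeR. Of 13520 genes tested, 1 passed (0.0074%), which was MIR211. Without U1 siRNA replicate 2 the values were -0.55 (SE 0.47), -0.12 (SE 0.60) and 0.18 (SE 0.62), each again with an adjusted p of 0.999, and of 13872 genes MIR211 alone passed.

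None of the listed genes known to act on the clusters or with their proteins passed the test either. Most were above the background limit in more than 6 libraries, WIZ (3 libraries) and AXIN1 (6) being the exceptions among the lists of looping, silencing, cleavage and cytoplasmic partners. In each of the comparisons of miR-211 and U1 siRNA with their controls, 0 of 13 genes of chromatin looping, which fold the clusters for promoter choice, passed in either direction. Their median log2 fold change was 0.02 with miR-211 and -0.05 with the U1 siRNA, beside 0.0079 and 0.015 over all genes tested. CTCF had 6.21 per kb and the cohesin subunit RAD21 25.9 per kb, and both were above the limit in all 12 libraries.

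Of 15 genes of silencing and DNA methylation, 0 passed in either comparison, with medians of 0.03 and 0.03. SMCHD1, a repressor known to act on the protocadherin clusters, had 1.5 per kb, the maintenance DNA methyltransferase DNMT1 16.6 per kb and DNMT3B, which methylates protocadherin promoters early in development, 1.37 per kb. Of 7 genes of cleavage, the protease ADAM10 and the gamma-secretase subunits that cut protocadherin proteins, 0 passed, and ADAM10 had 4.80 per kb. Of 14 cytoplasmic partners, among them the kinase PTK2 (3.61 per kb) and the WAVE complex subunit CYFIP1 (3.92 per kb), 0 passed. Of the 11 nonclustered protocadherins 5 were tested in each comparison and 0 passed, with log2 fold changes of -0.24 to 0.11 with miR-211 and -0.20 to 0.30 with the U1 siRNA. Of 12 genes beside or between the clusters 9 were tested in each and 0 passed, and TAF7 had log2 fold changes of -0.10 and -0.03.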

How the data were processed

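The authors deposited counts of read pairs per gene, with no normalization. Per the submitters' processing notes, STAR 2.7.2a was used, and the notes name GRCh37 and hg19; all 58735 gene identifiers are those of GENCODE 29, made on GRCh38, so the build of the alignment is not settled, and coordinates are from GENCODE 29 or, for promoters, RefSeq. The unstranded column was used, since the 2 strand columns differed little in total (ratio 0.907 to 1.01); without strand, reads of antisense partners cannot be told apart. Summary lines (35.4% to 57.4% of pairs) entered neither library sizes nor tests. Libraries held 4515728 to 9290686 counts, and 3 counts amount to 0.323 to 0.664 CPM.

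CPM used the total over genes. The test was that of edgeR 4.0.16 in R 4.3.3 (TMM, filterByExpr, quasi-likelihood, Benjamini-Hochberg over all genes tested) on the 6 libraries of each comparison, after checks on simulated data. Alternatives were DESeq2 1.42.0, RLE scaling, no filter, the sum of both strand columns, a replicate block and leaving out each library. Exact binomial intervals (95%) were taken on counts summed over the libraries of a group, so they cover counting error only. PCR copies were not marked, so the intervals may be too narrow even for counting error. Members and gene lists were chosen with earlier results of these data known. Genes named by rule are the 4 highest alpha, 6 highest beta and 6 highest gamma genes per kb, all C-type genes, and the genes tested. Others stand in a count or were named after their values were seen. Among these are PCDHA11, PCDHB7, PCDHGB1, PCDHGB3, PCDHGB6 and PCDHGB7.

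Same-numbered miR-211 and control plasmid libraries deviated together (correlations across genes 0.247, 0.303 and 0.239, all above 0.1), so their numbers were taken to pair them. For U1 siRNA and scrambled oligo these correlations were 0.138, 0.0885 and -0.0463. The main edgeR values for miR-211 come from the fit without a replicate block, which leaves this pairing out. Genes at an unadjusted p under 0.05 by edgeR numbered 417 in that fit and 943 with the block. With the block the lowest adjusted p of a clustered protocadherin was 0.848 by edgeR.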

Additional observations from a re-analysis of the deposited data

How the results depend on the processing

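No clustered protocadherin passed the test under any alternative run, although DESeq2 gave none of them an adjusted p between the controls, and 3 genes (2 with the 99th percentile, PCDHGA11 and PCDHGC3) stayed above background in most libraries, also with each library left out, an alternative chosen after seeing the data. Levels and the interaction without U1 siRNA replicate 2 were also added after seeing the data. Counts over all genes moved more. With miR-211 they were 1, and 2 with no filter and with the sum of strand columns; with U1 siRNA 0, and 7 with no filter; between the controls 0, and 27 with DESeq2, 51 with no filter and 6 with the sum of strand columns, and leaving out each library gave 0 to 21, the highest without scrambled oligo replicate 3.

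With the replicate block, 1 gene passed for miR-211 and 0 for U1 siRNA, and no call on a member changed. The log2 fold change of PCDHGC3 with miR-211, 0.0023, turned to -0.035 with DESeq2, -0.0049 with RLE scaling, -0.0057 with no filter and -0.0034 with the replicate block. Leaving out each library, it ran from -0.54 to 0.32, and that of PCDHGA11 from -0.18 to 0.19. Between the controls PCDHGA11 ran from -0.331 to 0.0613 and PCDHGC4 from -0.15 to 0.25. The ratios of summed CPM ran from 0.713 to 2.33 for alpha, 0.684 to 1.28 for beta and 0.852 to 1.29 for gamma with miR-211; from 0.499 to 2.86, 0.622 to 2.06 and 1.05 to 1.74 with U1 siRNA; and from 0.458 to 1.5, 0.680 to 1.27 and 0.878 to 1.25 between the controls, where the lowest alpha value is the one without plasmid control replicate 3. The cause was not tested. Depth limits the rest: 50 of the 53 genes had too few counts to be tested in any comparison.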
